A study of Rattus norvegicus with 30 samples.

Results

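Mitochondrial ribosomal proteins are the protein part of the mitoribosome, the ribosome inside mitochondria. They were taken here as the 68 gene names beginning with Mrpl (41 names, large subunit) or Mrps (27 names, small subunit) among the 21242 names measured at all 3 ages. These 68 names had 88 rows among 25058, and each name was described by its brightest row. The names mrpl9, mrpl11 and mrpl24, written in lower case, and Mrp63 fell outside this choice and are given further down.

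The mitoribosome translates only the messages of the mitochondrial genome, which encode core subunits of the respiratory chain and of ATP synthase. Its proteins are all encoded in the nucleus, made in the cytosol and imported, while its ribosomal RNAs are made inside the organelle. The small subunit reads the message, and the large subunit joins the amino acids and releases the growing chain towards the inner membrane. Heart muscle is rich in mitochondria and draws most of its energy from the respiratory chain.

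The hearts came from untreated F344 rats, an inbred strain, of a breeding colony kept on one diet. There were 5 female and 5 male rats at each of 8 weeks (young), 21 weeks (adult) and 78 weeks (old), so 30 hearts in 6 groups. Total RNA of each whole heart was labelled with Cy3 and hybridized to its own array of a 4 x 44k rat design. A level below is the log2 of a spot's signal over the 75th percentile of its array, so that 0 is the 75th percentile and a difference of 1 is a doubling. In whole hearts, fewer cells of a type and less RNA per cell cannot be told apart. Rats of both sexes at one age were handled in one batch and ages in separate batches, so every difference between ages is also a difference between batches, and age and batch cannot be told apart.

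Among the 43379 spots for genes on an array, 17182 to 24290 were well above background, and the 75th percentile of the signal ran from 39.9 to 171 units. Replicates 2, 4 and 5 of the 21-week males had fewer than 20000 such spots, and those 3 arrays are called the weakest arrays below. The Y-linked gene Eif2s3y was at -6.90 to -6.14 in 14 of the 15 hearts labelled female and at -0.00 to 0.63 in 14 of the 15 labelled male. The 78-week heart labelled female replicate 2 was at 0.44 and the one labelled male replicate 3 at -6.49, and Ddx3y differed in the same 2 hearts (-1.82 and -6.38). Both kept their labels, and results at 78 weeks are also given without them. All 8 cardiomyocyte markers, among them Myh6 and Tnnt2, were well above background on all 30 arrays, which bears out the labelled tissue.

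The array often held more than 1 probe for a mitoribosomal gene, and the choice of row decided the level. Of the 68 names, 49 had a single row and 19 had several, with 20 further rows. The probe of 18 of these 20 rows lay on the opposite strand, with its start 2 to 7712 bases from that of the bright probe. The 2 further rows of Mrpl35 and Mrps2 lay on the same strand. In 5 names the bright and the dim probe were reverse complements over at least 20 bases. The stretches below, 30 bases of each probe, 5′ to 3′, show the pairing for 3 of them, all bases in capitals being complementary between the members of a pair, with positions on rat build rn3.
Mrpl34 bright row: ACCTGCGATATCTCGTCCGTTTTTGTAAAT
Mrpl34 dim row: ATTTACAAAAACGGACGAGATATCGCAGGT
Mrpl50 bright row: TGATGAACTCATTGCTAGTAATTTACCTCC
Mrpl50 dim row: GGAGGTAAATTACTAGCAATGAGTTCATCA
Mrps16 bright row: TATGATCCACTACCTAACAGTCATGGAGAA
Mrps16 dim row: TTCTCCATGACTGTTAGGTAGTGGATCATA
The whole probe of Mrpl45, the member with the smallest p in all 3 age comparisons, is given in lower case because no part of it is marked.
Mrpl45: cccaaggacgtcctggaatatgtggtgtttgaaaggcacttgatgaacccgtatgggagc

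Over the 30 hearts the bright row of Mrpl34 (chr16:18636746-18636805, plus strand) averaged 4.70 and its dim row (chr16:18636748-18636807, minus strand) -4.50. The bright row of Mrpl50 (chr5:66267954-66268013, minus strand) averaged 2.62, against -6.16 for the dim row (chr5:66267977-66268036, plus strand). Mrps16 had 3.98 in its bright row (chr15:4148499-4148558, plus strand) and -2.03 in its dim row (chr15:4148521-4148580, minus strand), a row that averaged several probes. The Mrpl45 probe lay at chr10:86071090-86071149 on the plus strand and averaged 3.22. Across the 18 further rows on the opposite strand, the bright row of the name lay above the other by 2.90 to 11.06, with a median of 7.50. Only 8 of the 20 further rows were well above background on all 30 arrays, and 3 never were. From 8 to 21 weeks those 8 rows had a median difference of 0.47 and their bright rows 0.36, and 7 bright rows passed the test. From 21 to 78 weeks the medians were -0.24 and -0.49, and all 8 bright rows passed. None of the 8 moved against a bright row that passed. From 8 to 78 weeks no bright row passed, so that count says nothing there, and the medians had opposite signs (0.28 and -0.08).

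Mitoribosomal probes were bright in these hearts. All 41 large subunit names and 26 of the 27 small subunit names were well above background on all 30 arrays, against 56.5% of all names, and the exception, Mrps10, was above background on 28. The median level was 2.89 for the large subunit names (from -1.86 to 6.23) and 3.39 for the small subunit names (from -3.40 to 5.61), against -2.14 over all names. A level above 2 was reached by 26 of 41 large and 21 of 27 small subunit names, and by 12.8% of all names. Brightness depends on each probe, so it orders probes and not transcripts.

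**Figure D1:**
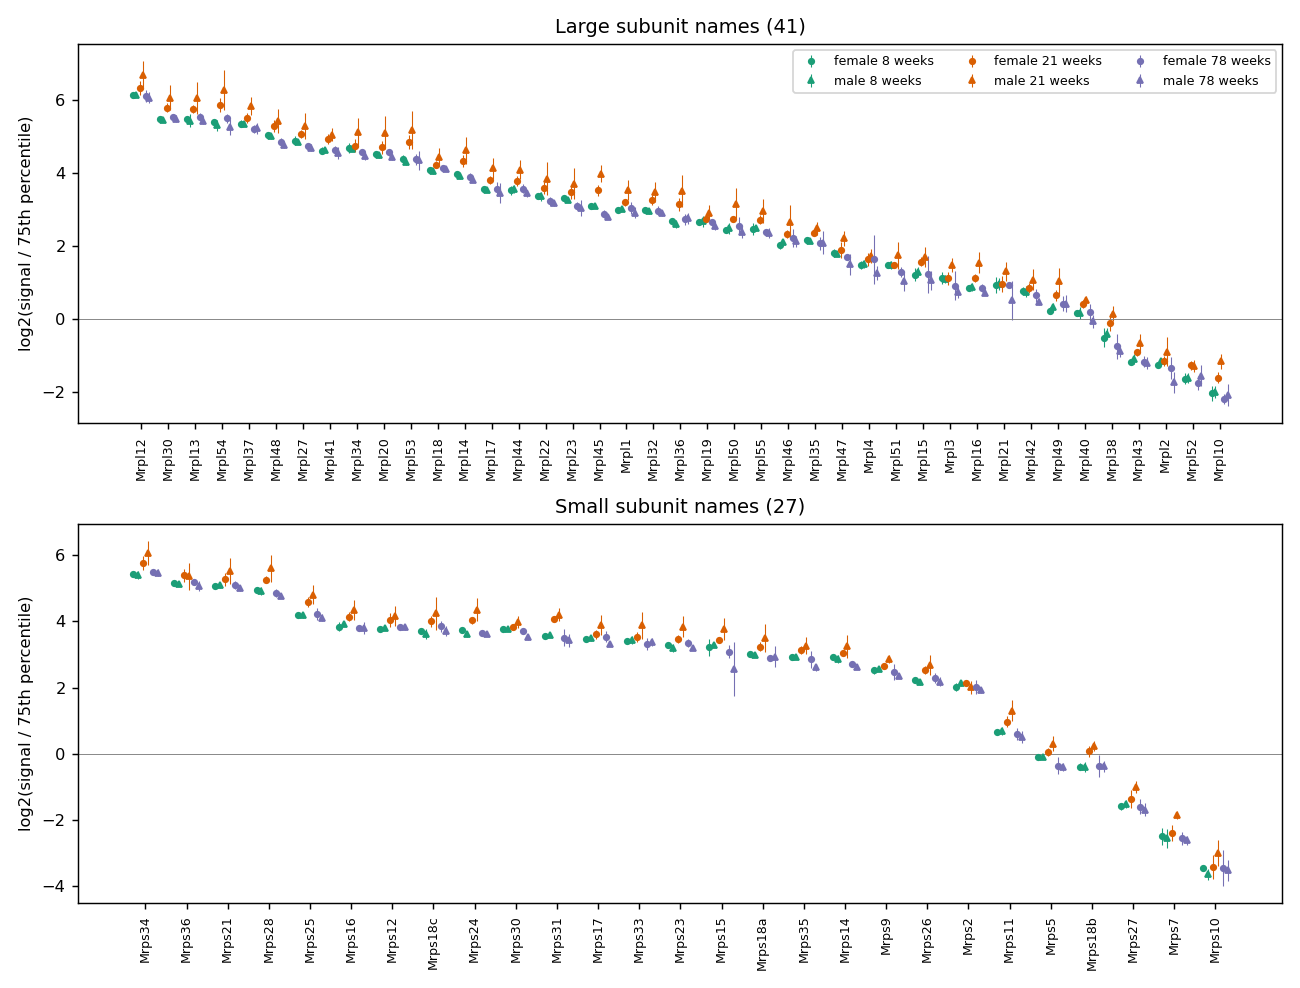
Level of each of the 41 large (top) and 27 small (bottom) subunit names on the log2 scale relative to the array's 75th percentile, with points for the 6 group means and bars for the SD over 5 hearts. The names spread from -3.40 to 6.23, and within nearly every name the 21-week groups lie above the 8-week and 78-week groups.

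The brightest large subunit rows were Mrpl12 (6.23 over the 30 hearts, from 5.95 to 7.14), Mrpl30 (5.62, from 5.36 to 6.53), Mrpl13 (5.60, from 5.29 to 6.57) and Mrpl54 (5.59, from 4.89 to 7.02). Mrpl12 is the counterpart of the bacterial stalk protein that recruits translation factors. Mrpl30 and Mrpl13 have bacterial counterparts, while Mrpl54 belongs to the proteins that only mitochondrial ribosomes have. The dimmest were Mrpl43 (-1.05), Mrpl2 (-1.27), Mrpl52 (-1.53) and Mrpl10 (-1.86), and Mrpl10 forms the base of the stalk that carries Mrpl12.

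Among small subunit names the brightest were Mrps34 (5.61, from 5.25 to 6.50), Mrps36 (5.22), Mrps21 (5.18) and Mrps28 (5.06). The dimmest were Mrps18b (-0.20), Mrps27 (-1.45), Mrps7 (-2.40) and Mrps10 (-3.40). Some members carry a name that no longer matches their place. Mrps36, now known as a subunit of the 2-oxoglutarate dehydrogenase complex, was the second brightest of the small subunit names. Mrps30 (3.77, from 3.43 to 4.24) and Mrps18a (3.10, from 2.77 to 4.07) are small subunit names of proteins that sit in the large subunit.

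The mean over the large subunit names and the mean over the small subunit names moved together across the groups. Averaged over the names of a subunit, the 8-week females had 2.54 ± 0.05 for the large and 2.56 ± 0.03 for the small subunit (SD, n = 5 here and below), and the 8-week males 2.55 ± 0.05 and 2.55 ± 0.04. At 21 weeks the females had 2.78 ± 0.08 and 2.78 ± 0.09 and the males 3.06 ± 0.28 and 3.02 ± 0.25. At 78 weeks the females had 2.51 ± 0.11 and 2.52 ± 0.13 and the males 2.40 ± 0.06 and 2.42 ± 0.06. The large minus small difference within a heart averaged from -0.02 to 0.04 over the 6 groups, with an SD of 0.02 to 0.04.

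The 21-week males were the group that varied most. The mean over all 68 names was 2.77 in replicate 1, 3.26 in replicate 2, 2.93 in replicate 3, 2.88 in replicate 4 and 3.40 in replicate 5. Replicates 2 and 5 were the highest of the 30 hearts, and both were weakest arrays, while replicate 4, the other weakest array, lay within the range of the 21-week females (2.69 to 2.89). The 75th percentile of the signal was 39.9 in replicate 2, 65.6 in replicate 4 and 72.1 in replicate 5, against 103 and 105 in replicates 1 and 3. The mean over names above background on all arrays, members or not, was also highest in replicates 2 and 5 (0.47 and 0.46, against 0.31 to 0.41 in the other hearts). The part of these arrays' signal in the result was not tested. The sex, age and correlation results that use 21-week hearts are also given without them, but not the sex differences compared between ages.

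**Figure D2:**
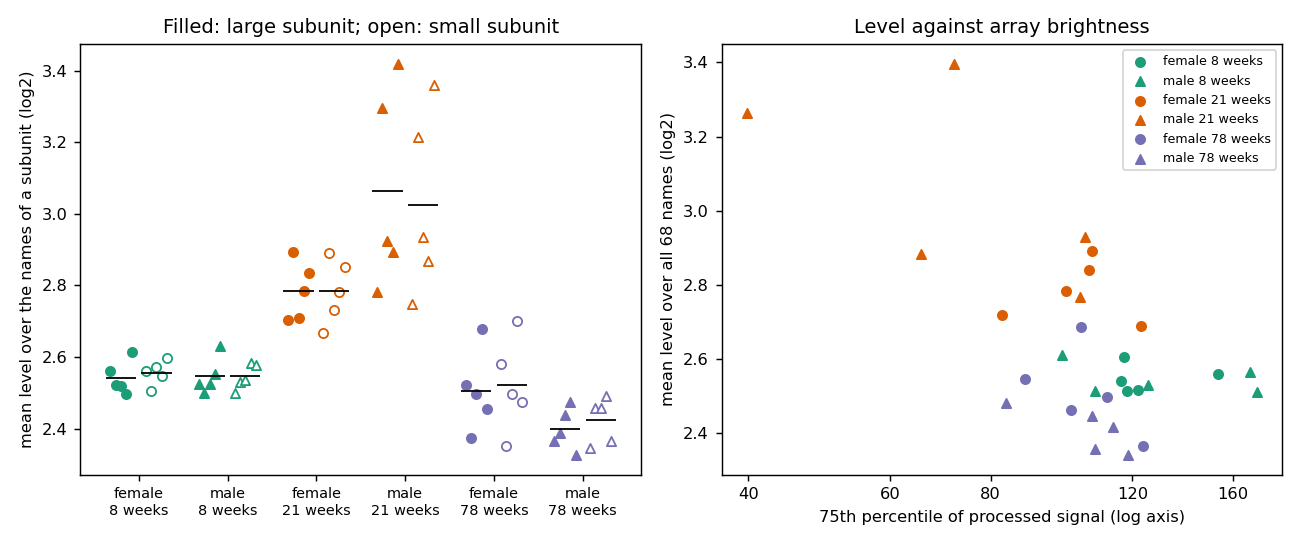
Left, mean level over the 41 large (filled) and 27 small (open) subunit names in each of the 30 hearts, by group. Right, mean over all 68 names against the 75th percentile of each array's signal on a log axis. The filled and open marks of a group lie at like heights, and the 2 highest hearts (3.26 and 3.40) are 21-week males with a 75th percentile of 39.9 and 72.1.

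Most member names rose and fell with the mean of the others from heart to heart, loosely at 8 weeks. For each name, its level was correlated with the mean of the other members over the 10 hearts of an age, after the mean of each sex was subtracted. The median Pearson r over the 68 members was 0.43 at 8 weeks, 0.94 at 21 weeks and 0.61 at 78 weeks. Over all 11928 names that were not members and lay above background on 30 arrays, the same measure had a median of 0.03, 0.27 and 0.07. Above 0.8 were 4, 47 and 14 members at the 3 ages, against 0.864%, 21.8% and 8.58% of those names. Below 0 were 7, 3 and 7 members, and the median r between pairs of members was 0.21, 0.75 and 0.36. The 10 points of an age share arrays and scaling, so these values are descriptions and carry no p.

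The means of both subunits followed each other more closely than single names did. Pearson r between the large and the small subunit mean was 0.68 at 8 weeks, 0.99 at 21 weeks and 0.95 at 78 weeks (n = 10 hearts each). The mean over members correlated with the mean over 37 complex I names at 0.68, 0.93 and 0.93, and with the mean over 77 cytosolic ribosomal proteins at 0.39, 0.95 and 0.07. With quantile normalization, which gives every array the same distribution, the r with cytosolic ribosomal proteins was 0.21, 0.94 and -0.83, so that its sign at 78 weeks turned, and without the 2 hearts with Y-linked signal of the other sex it was -0.39 at 78 weeks. The r of the member mean with the log2 75th percentile of the array was -0.22, -0.54 and -0.57. Without the weakest 21-week male, replicate 2, the median member r at 21 weeks was still 0.94. Without all 3 weakest arrays, which leaves 7 hearts, it was 0.79, against 0.19 over the other names, with 32 members above 0.8 (10.96% of those names) and an r of 0.98 between the subunit means. Without the 2 hearts with Y-linked signal of the other sex the median at 78 weeks was 0.56. Quantile normalization lowered the medians to 0.31, 0.79 and 0.36.

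Mrps17, the counterpart of a bacterial small subunit protein that binds ribosomal RNA, had the highest median r (0.94 at 8, 0.98 at 21 and 0.88 at 78 weeks). In the 78-week females it was at 3.63, 3.37, 3.52, 3.79 and 3.40, and in the males at 3.25, 3.45, 3.34, 3.35 and 3.27. Female replicate 4 was highest in Mrps17 and also in the mean over members (2.69). Next came Mrps18c (0.42, 0.97 and 0.93), Mrps28 (0.49, 0.96 and 0.92) and Mrpl42 (0.88, 0.81 and 0.91). The lowest were Mrpl47 (0.04, 0.59 and -0.10), Mrps12 (-0.09, 0.89 and -0.13), Mrpl52 (0.15, -0.15 and -0.21) and Mrps7 (-0.27, -0.25 and -0.02). Mrps12, counterpart of a protein of the decoding centre, joined the others at 21 weeks only in this measure, and the difference between ages was not tested.

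**Figure D3:**
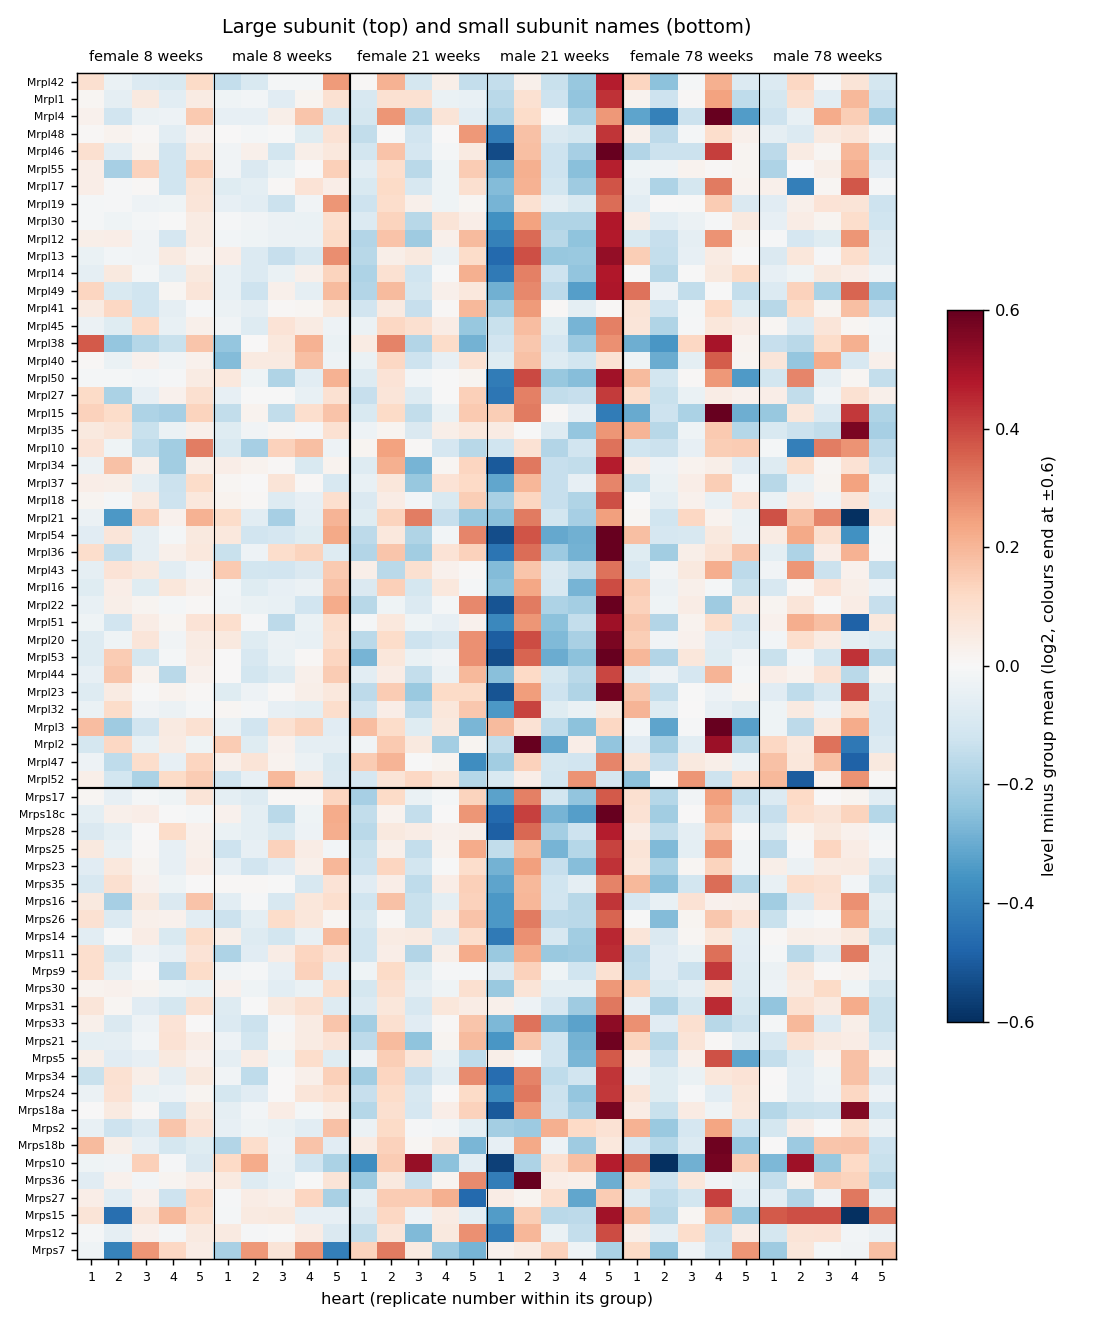
Level of each of the 68 members (rows, large subunit above small, each ordered by the median correlation with the other members) in each of the 30 hearts (columns), minus the mean of the heart's group, with colours ending at 0.6 on the log2 scale either way. The columns of 21-week male replicates 2 and 5 are high in nearly all rows, and rows at the low end of each subunit, such as Mrps7, do not follow them.

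Whether female and male hearts differed at each age was the question of the study, and levels in the sex comparisons are on the scale of the deposited tables, which were scaled within each age. At 8 weeks none of 68 members passed an adjusted p of 0.05 between the sexes (limma), against 0.112% of 23268 names. This is a moderated test on log2 levels, with Benjamini-Hochberg adjustment over all names. On simulated data 5 against 5 recovered 8% of log2 changes of 0.5. The changed names were drawn at random from all names, with each name's spread averaged over the 6 groups. That share is therefore not the share for the members. Not passing does not show equal levels. The median difference, female minus male, was 0.00, with 35 members higher in females, where 48.1% of all names were. Only Mrps10, a small subunit protein and the dimmest member, passed an unadjusted p of 0.05, against 6.19% of all names. Its levels were -3.23, -3.23, -3.07, -3.22 and -3.28 in the females and -3.30, -3.18, -3.46, -3.51 and -3.59 in the males. The ranges overlapped, and the difference was 0.20 ± 0.09 (SE; limma, adjusted p = 0.79).

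Mrps24 (0.13), Mrpl2 (-0.10), Mrps2 (-0.12) and Mrpl46 (-0.09) had the next smallest p at 8 weeks, and none of these differences passed even without adjustment. All 68 differences lay between -0.12 and 0.20. The medians of the large and small subunit were 0.00 and 0.01.

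At 21 weeks nearly all members had a higher mean in males, but none passed the adjusted test. The mean was higher in males for 65 of the 68 members, 40 of 41 large and 25 of 27 small subunit names, and higher in females for 38.3% of all names. The median difference was -0.27, against -0.12 over all names, -0.28 over cytosolic ribosomal proteins and -0.28 over complex I. None had an adjusted p under 0.05 (limma, against 0.0732% of 23227 names). Unadjusted, 10 of the 68 members passed, all higher in males, where 9.89% of all names did so in that direction. The female and male levels did not overlap in 5 members, each higher in males, against 2.25% of all names.

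Mrps7, a protein of the head of the small subunit, had the smallest p. It was at -2.02, -1.85, -2.12, -2.36 and -2.44 in the females and at -1.57, -1.53, -1.44, -1.62 and -1.77 in the males. Every male lay above every female, and the difference was -0.57 ± 0.14 (SE), a 1.48-fold higher mean in males (limma, adjusted p = 0.228). Its exact two-sided permutation p was 0.00794, the smallest that 5 against 5 can give, before any correction for 68 members.

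Mrpl10, at the base of the stalk, was at -1.37, -1.15, -1.39, -1.47 and -1.55 in the females and at -1.05, -0.83, -1.10, -1.05 and -0.59 in the males. The groups did not overlap, with a difference of -0.46 ± 0.14 (SE; limma, adjusted p = 0.244). Mrpl45, which ties the large subunit to the inner membrane, was at 3.71, 3.86, 3.83, 3.80 and 3.51 in the females and at 4.07, 4.41, 4.15, 3.93 and 4.52 in the males. Here too each male was above each female, by -0.47 ± 0.14 as female minus male (SE; limma, adjusted p = 0.246). Mrpl16 (-0.44) and Mrpl1 (-0.34) were the others without overlap, while Mrpl3, a protein near the catalytic centre, differed by -0.39 with overlap.

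Without the weakest arrays, which leaves 2 males against 5 females, the median difference over members was -0.04, and 2 members passed unadjusted, against 6.35% of all names in that fit. Not every member had a smaller difference then, with Mrps7 at -0.65 and Mrpl45 at -0.36. Within the slides of the 21-week hearts, each of which held both sexes, the median was -0.23, -0.15 and -0.63, and the last is 1 female against male replicate 5. Females and males took fixed array positions on every slide, so sex and position cannot be told apart. Mrps2 (0.12), Mrps36 (0.01) and Mrpl52 (0.00) were the only members with a higher mean in females.

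At 78 weeks most members had a slightly higher mean in females, and again none passed the adjusted test. The mean was higher in females for 60 of 68, where 49.8% of all names were, and the median difference was 0.10, against -0.00 over all names, 0.01 over cytosolic ribosomal proteins and 0.12 over complex I. No member and no other name had an adjusted p under 0.05 (0% of 22458 names). Only Mrpl2, a protein of the catalytic core, passed unadjusted, against 5.87% of all names. Without the 2 hearts with Y-linked signal of the other sex the median was 0.14, still none passed the adjusted test, and 4 passed unadjusted, against 8.8% of all names in that fit.

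Mrpl2 was at -1.28, -1.41, -1.28, -0.68 and -1.38 in the 78-week females and at -1.49, -1.55, -1.30, -2.04 and -1.70 in the males. Female replicate 4 was highest and male replicate 4 lowest, the remaining levels lay close together, and the ranges overlapped. The difference was 0.41 ± 0.18 (SE; limma, adjusted p = 0.832). Mrps30 (0.19), Mrps17 (0.22), Mrpl54 (0.25) and Mrps35 (0.26) had the next smallest p, each with an adjusted p of 0.832. Mrps15, whose bacterial counterpart binds ribosomal RNA, had the widest difference (0.54 ± 0.34), with females at 3.40, 3.06, 3.23, 3.44 and 3.00 and males at 3.06, 3.08, 3.07, 1.23 and 3.00. Male replicate 4 lay far below the rest, and the other 4 males lay within the range of the females. On the scale of the scanner files the difference was 0.53 with this heart and 0.16 without it.

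The study's methods name an analysis of variance between the sexes at each age, on the average over the probes of a gene. Run on the brightest rows used here, where it equals an equal-variance test of 2 means, it passed 2, 16 and 6 members unadjusted at 8, 21 and 78 weeks, against 6.96%, 16.9% and 6.14% of all names. None passed after adjustment, against 0.0817%, 0.0603% and 0% of all names.

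**Figure D4:**
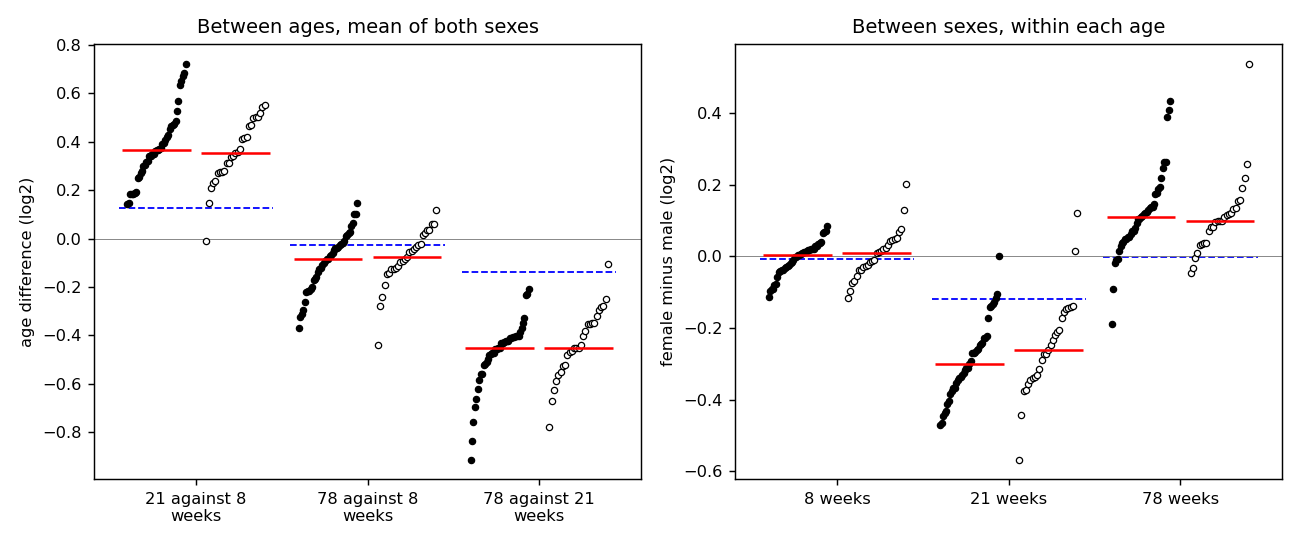
Differences on the log2 scale of the 41 large (filled) and 27 small (open) subunit names between ages (left) and between sexes as female minus male (right), with the median of members as a red line and a blue dashed line for names above background on all arrays (ages) or all names (sexes). Members stand near 0.36 for 21 against 8 weeks and near -0.45 for 78 against 21 weeks, and near 0 for 78 against 8 weeks.

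Between ages, levels were compared on a common scale built from the scanner files, with sexes weighted equally and the slide as a random block. Mitoribosomal names were higher at 21 than at 8 weeks. Of 68 members, 57 rose (limma, adjusted p under 0.05), 34 of 41 large and 23 of 27 small, and none fell, where 26.2% of all 21242 names rose and 22% fell. The median difference was 0.36, against 0.08 over all names and 0.12 over names above background on all arrays. The levels of the 10 adult hearts lay wholly above those of the 10 young hearts in 15 members, against 4.98% of all names. Age and batch cannot be told apart in these values.

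The bright names as a whole moved in the same way. Names with a level above 4 (1018 names above background on 30 arrays) had a median difference of 0.37 between 21 and 8 weeks, and the 18 members in that range 0.38. Among dim names, below level 0, the median of all 6021 names was 0.07 and that of the 10 members 0.36. Cytosolic ribosomal proteins (0.43) and complex I (0.45) had medians as high as the members. Markers of heart muscle cells moved with them, 7 of 8 passing upwards (median 0.54), with Ryr2 the one that fell. Their part in the result was not tested.

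The largest differences were in large subunit names. Mrpl54 had a lowest, median and highest level of 5.18, 5.34 and 5.52 over the 10 hearts at 8 weeks, of 5.66, 5.94 and 7.02 at 21 weeks, and of 4.89, 5.38 and 5.66 at 78 weeks. All adult hearts lay above all young ones, and the rise was 0.72 ± 0.12 (SE; limma, adjusted p = 2.94e-05). Mrpl36, the counterpart of the smallest bacterial large subunit protein, had 2.46, 2.65 and 2.77 at 8 weeks and 2.92, 3.24 and 4.10 at 21 weeks. Its ranges did not overlap either, with a rise of 0.68 ± 0.10 (SE; limma, adjusted p = 8.91e-06).

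Mrpl45 was at 3.06, 3.02, 3.21, 3.05 and 3.12 in the 8-week females and at 3.07, 3.01, 3.17, 3.14 and 3.06 in the 8-week males. At 21 weeks the females had 3.47, 3.63, 3.61, 3.56 and 3.28 and the males 3.84, 4.16, 3.90, 3.69 and 4.27. At 78 weeks the females had 2.93, 2.68, 2.86, 2.93 and 2.91 and the males 2.81, 2.71, 2.87, 2.80 and 2.78. The 3 ages therefore formed separate ranges, the adult hearts highest and the old hearts lowest. The rise from 8 to 21 weeks was 0.65 ± 0.07 (SE; limma, adjusted p = 5.78e-08), and the 78-week hearts lay below the 21-week hearts by a difference of -0.91 and below the 8-week hearts by one of -0.26.

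Mrpl53 (0.67), Mrpl10 (0.64) and Mrpl49 (0.57) completed the 6 largest rises. Mrpl10 had a lowest, median and highest level of -2.26, -2.06 and -1.74 in young and of -1.78, -1.36 and -0.84 in adult hearts, so that these ranges barely overlapped. Mrps2 was the only member with a negative value (-0.01 ± 0.07, SE), with 1.91, 2.10 and 2.32 at 8 weeks and 1.79, 2.12 and 2.25 at 21 weeks.

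The difference held without the weakest arrays, with a smaller size. Without them 47 members rose, where 18.2% of all names did, and the median was 0.26, against 0.04 over all names. Within females, where no array was among the weakest, 9 of 68 rose (5.94% of all names) and the median was 0.23. Within males 59 rose (25% of all names) and the median was 0.48. Mrpl54 and Mrpl53 did not pass within females (0.47, adjusted p = 0.0604 and 0.47, adjusted p = 0.0563, limma).

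Old hearts were lower than adult hearts in nearly every member. Of 68, 65 fell (limma, adjusted p under 0.05), 40 of 41 large and 25 of 27 small, and none rose, where 25.4% of all names fell and 21.1% rose. The median difference was -0.45, the same in both subunits to 2 decimals, against -0.06 over all names and -0.14 over names above background on all arrays. The 10 old hearts lay wholly below the 10 adult hearts in 14 members, against 2.89% of all names. The comparisons of 21 with 8 weeks and of 78 with 21 weeks share the 21-week hearts, the weakest arrays among them. The falls were also shared by bright names in general (median -0.36 above level 4), by cytosolic ribosomal proteins (-0.43) and by complex I (-0.47).

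Mrpl45 fell by 0.91 on the log2 scale (SE 0.07, limma, adjusted p = 1.28e-09). Mrpl38, a protein found only in mitochondrial ribosomes, had a lowest, median and highest level of -0.41, 0.00 and 0.40 in adult and of -1.12, -0.85 and -0.27 in old hearts. It fell by 0.84 (SE 0.11, limma, adjusted p = 1.02e-06), with a small overlap of the ranges. Mrps31 was at 3.98, 4.13 and 4.52 in adult and at 3.19, 3.44 and 3.96 in old hearts, with no overlap and a fall by 0.67.

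Mrpl10 (-0.76) and Mrpl54 (-0.70) fell by similar sizes. Mrps15 fell by 0.78 (SE 0.17, limma, adjusted p = 0.000627), with 3.35, 3.52 and 4.27 in adult and 1.10, 2.94 and 3.29 in old hearts. The value of 1.10 was that of male replicate 4, and without this heart the difference was -0.60. Mrps2 had the smallest difference (-0.10 ± 0.07, SE) and did not pass (adjusted p = 0.244, limma), with 1.80, 1.92 and 2.26 in old hearts.

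Without the weakest arrays 58 members fell, where 20.6% of all names did, and the median was -0.33. Without the 2 hearts with Y-linked signal of the other sex 65 fell (24.9% of all names) and the median was -0.43. Within females 22 fell (9.58% of all names), with a median of -0.25, and within males 64 fell (23.8% of all names), with a median of -0.63. Mrps15 and Mrpl54 did not pass within females (-0.35, adjusted p = 0.34 and -0.37, adjusted p = 0.128, limma).

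Old and young hearts differed little. Of 68 members 5 fell from 8 to 78 weeks and none rose, so 7.35%, near the background of 8.32% of names that fell, with 6.91% rising. The median difference was -0.08, against 0.01 over all names and -0.03 over names above background on all arrays. A positive value was found in 16 of 68 members and in 11026 of 21242 names. The 5 were Mrpl38 (-0.37), Mrpl51 (-0.31), Mrps5 (-0.28), Mrpl45 (-0.26) and Mrps14 (-0.24). Mrpl51 belongs only to mitochondrial ribosomes, while Mrps5 and Mrps14 have bacterial counterparts in the small subunit. Mrpl45 (SE 0.07, limma, adjusted p = 0.00717) was the only member whose old and young hearts did not overlap, against 1.98% of all names that were lower without overlap.

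This count changed with single hearts left out and with the fit. Leaving out 1 heart at a time gave 3 to 11 members, and no member passed within females. Shares of all names in these fits are not given here. With the slide as a fixed block none passed, but there the age difference rests on the 1 slide that held both ages. So few hearts could hardly pass, and that count says little about the members. Mrps14 (adjusted p = 0.08) no longer passed without the 2 hearts with Y-linked signal of the other sex. The slide that held both ages had 2 young and 2 old hearts. Within it the median difference over members was -0.14, against 0.01 over all names. There 61 of 68 members were lower in the old hearts, and the share of all names that were lower is not given here.

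Whether the sex difference changed between ages was tested as an interaction. No member passed, against 1 of 21242 names for 21 against 8 weeks (0.00471%), none for 78 against 8 weeks and 1 for 78 against 21 weeks. Unadjusted, 15, 1 and 36 members passed a p of 0.05, against 14.4%, 3.5% and 17.6% of all names. The sex difference of Mrpl45 moved by -0.47 ± 0.13 from 8 to 21 weeks (SE; limma, adjusted p = 0.239) and by 0.53 ± 0.13 from 21 to 78 weeks (adjusted p = 0.105). Mrpl16 moved by 0.55 from 21 to 78 weeks with the same adjusted p. Mrps7 and Mrps24 from 8 to 21 weeks, Mrps23 from 21 to 78 weeks, and Mrpl2, Mrpl21 and Mrps30 from 8 to 78 weeks had the other smallest p. Without 21-week male replicate 1, the lowest of its group in the mean over members, 2 members passed for 21 against 8 weeks (2.09% of all names) and 17 for 78 against 21 weeks (6.69%). Without replicate 4 Mrpl45 was the 1 member that passed for the latter (0.132% of all names). In the other 28 of 30 fits leaving out 1 heart no member passed for 78 against 21 weeks. The interactions were not fitted without the 3 weakest arrays together.

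Among the other genes of the pathway more rose than fell from 8 to 21 weeks and more fell than rose from 21 to 78 weeks, with smaller medians than the members, a difference that was not tested. Of 84 listed genes for mitochondrial translation factors, aminoacyl-tRNA synthetases, ribosome assembly and rRNA modification, transcription and RNA handling, and ribosomal proteins under other names, 64 were measured. From 8 to 21 weeks 36 rose (56.2%, against 26.2% of all names) and 1 fell, with a median of 0.22. From 21 to 78 weeks 45 fell (70.3%, against 25.4% of all names) and none rose, with a median of -0.31. From 8 to 78 weeks 6 of the 64 fell, a share near the 8.32% of all names that fell. None rose, and the median was -0.08. None differed between sexes at any age after adjustment (limma). The 1 that fell from 8 to 21 weeks was Lrpprc (-0.33 ± 0.09, SE), which stabilizes mitochondrial messenger RNAs.

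By group, 4 of 9 translation factors rose from 8 to 21 weeks and 7 fell from 21 to 78 weeks. Among aminoacyl-tRNA synthetases and related enzymes 6 of 18 rose (33.3%, nearest of the lists to all names) and 9 fell, with Kars (0.50) and Tars2 (0.40) rising most clearly. Assembly and modification factors had 11 of 14 rising and 12 falling, with Nsun4, an rRNA methyltransferase that takes part in assembly, at 0.51 and -0.66, and the helicase Ddx28 at 0.47 and -0.48. Of 18 genes of transcription and RNA handling, 10 rose and 12 fell. Tfb2m, a mitochondrial transcription factor, rose by 0.47 and fell by 0.44, and Hsd17b10, a subunit of mitochondrial RNase P, rose by 0.67 and fell by 0.78.

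Of 7 measured ribosomal proteins of the mitochondrion under other names, 6 rose from 8 to 21 weeks and all 7 fell from 21 to 78 weeks. Dap3 of the small subunit had 0.32 and -0.51, Chchd1 0.47 and -0.48, Gadd45gip1 0.45 and -0.46, and Mrp63 0.35 and -0.40. The lower-case names mrpl9 (0.53 and -0.56), mrpl11 (0.41 and -0.70) and mrpl24 (0.48 and -0.55) passed both comparisons as well (limma, adjusted p under 0.05). Of these lower-case names mrpl11 also fell from 8 to 78 weeks (-0.29; limma, adjusted p = 0.0407). The 6 listed pathway genes that fell from 8 to 78 weeks were Mtpap (-0.40), Pnpt1 (-0.37), Qrsl1 (-0.34), Yars2 (-0.25), Gfm1 (-0.24) and Mrrf (-0.21), which act in RNA tailing, RNA decay, tRNA charging, elongation and ribosome recycling. Of the synthetases, Fars2 fell by 0.51 from 21 to 78 weeks.

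**Figure D5:**
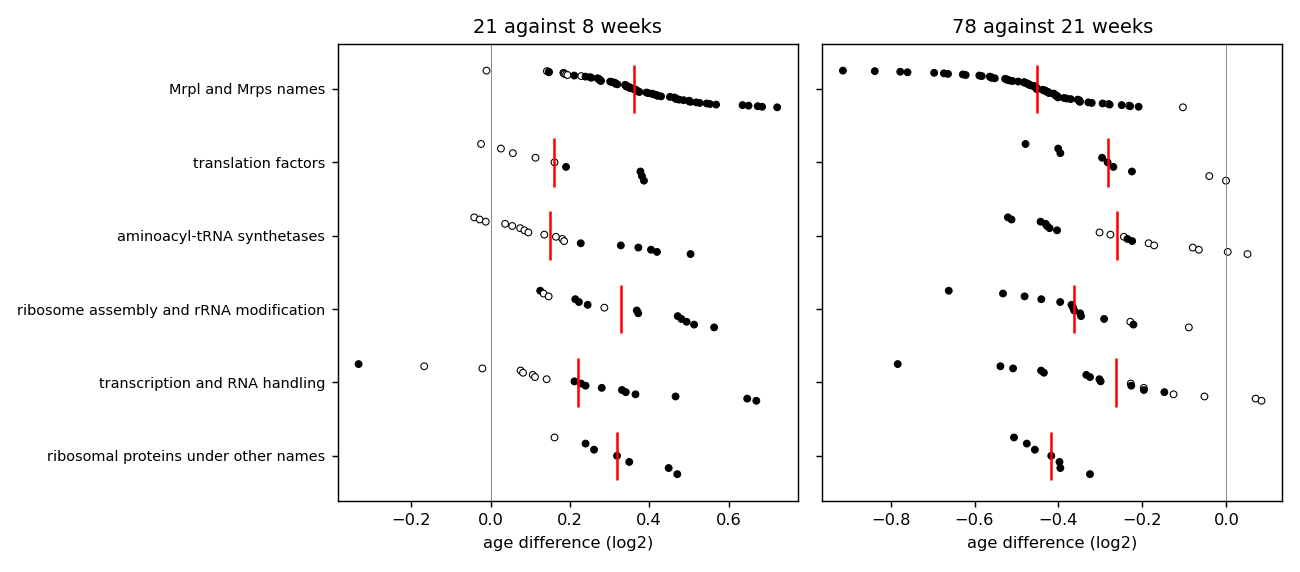
Differences on the log2 scale of the members and of 5 lists of other mitochondrial translation genes for 21 against 8 weeks and 78 against 21 weeks, with one point per gene, filled where the limma adjusted p was under 0.05, and the median of each list in red. Every list has a median above 0 in the first and below 0 in the second comparison, the members with 0.36 and -0.45.

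Markers of other cell types moved with age too. Summed over its 8 markers, the cardiomyocyte level was 10.43 to 10.77 in young females, 10.29 to 10.88 in young males, 10.72 to 11.22 in adult females, 10.90 to 12.08 in adult males, 10.58 to 10.92 in old females and 10.64 to 11.04 in old males. Of 5 fibroblast markers 4 fell and 1 rose from 8 to 21 weeks, with sums of 7.44 to 7.90 in young, 6.63 to 7.07 in adult and 6.18 to 7.24 in old hearts. Of 5 endothelial markers 4 fell, with sums of 5.86 to 6.38, 4.63 to 6.01 and 5.66 to 6.04, and of 5 smooth muscle and pericyte markers 3 fell and 1 rose, with sums of 5.23 to 5.59, 4.32 to 5.12 and 4.82 to 5.69. Of 5 macrophage and leukocyte markers 2 rose, and of 4 adipocyte and of 4 erythroid markers 1 each rose. None of the 4 skeletal muscle, 2 lung and 2 thymus and T cell markers was above background on all arrays. The sum of the 2 lung markers reached 6.14 in the adult females, whose median was -4.25, and was at most -0.69 in the other groups. The sum of the 4 skeletal muscle markers reached 2.58 in the adult females, whose median was -1.46, and was at most -0.39 in the other groups. The part of cell composition in the members' differences was not tested.

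Promoters of nuclear genes for mitochondrial proteins are known to carry binding motifs of NRF1, of ETS factors and of YY1. RefSeq promoters (assembly GRCr8, 250 bases before to 50 after the start) were found for 55 of the 68 members. The NRF1 motif, which reads GCGC, any base and TGCGC, was present on either strand in 8 of the 55 (14.5%), against 6.09% of 19005 promoters. The ETS motif CCGGAAG was present in 18 (32.7%, against 11.2%) and the YY1 motif AAGATGGC in 14 (25.5%, against 3.92%). The SP1 motif GGGCGG (52.7%, against 43.1%), TATAAA (12.7%, against 13.1%) and CCAAT (43.6%, against 38.4%) lay nearer to the shares over all promoters. Cytosolic ribosomal proteins had NRF1 in 7.94%, ETS in 31.7% and YY1 in 7.94% of 63 promoters. Complex I had NRF1 in 16.7%, ETS in 16.7% and YY1 in 21.4% of 42. These are matches of letters, with no measure of binding.

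The 250 bases before the start of 3 members are given 5′ to 3′ in the direction of the gene. Matches of the NRF1, ETS and YY1 motifs are in capitals and the rest, with any match of the other motifs, in lower case. Mrpl45 (chr10:82804789-82805038, plus strand) has 2 NRF1 matches, Mrpl48 (chr1:164351377-164351626, minus strand) has 1 YY1 and 1 ETS match, and Mrps18b (chr20:2842756-2843005, plus strand) has 1 palindromic NRF1 match, which counts on both strands.
Mrpl45: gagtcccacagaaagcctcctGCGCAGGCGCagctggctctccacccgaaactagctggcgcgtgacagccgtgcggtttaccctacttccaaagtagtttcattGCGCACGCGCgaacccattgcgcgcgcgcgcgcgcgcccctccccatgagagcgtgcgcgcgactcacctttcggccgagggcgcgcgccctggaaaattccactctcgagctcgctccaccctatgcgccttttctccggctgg
Mrpl48: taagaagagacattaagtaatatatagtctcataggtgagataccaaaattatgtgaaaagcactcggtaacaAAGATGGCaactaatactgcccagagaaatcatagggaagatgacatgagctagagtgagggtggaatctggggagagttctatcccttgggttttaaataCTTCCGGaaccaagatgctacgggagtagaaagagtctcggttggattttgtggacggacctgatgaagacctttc
Mrps18b: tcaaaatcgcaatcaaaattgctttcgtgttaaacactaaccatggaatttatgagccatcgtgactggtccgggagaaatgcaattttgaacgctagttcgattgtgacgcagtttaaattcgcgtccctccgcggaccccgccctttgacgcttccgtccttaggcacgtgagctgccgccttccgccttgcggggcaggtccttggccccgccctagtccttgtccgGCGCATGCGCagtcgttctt
The ETS and YY1 matches of Mrps18b lie in the 50 bases after its start, which are not printed. On the array Mrpl45 and Mrps18b, both with NRF1 matches, had levels of 3.22 and -0.20, and Mrpl48 had 5.05.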

How the data were processed

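The authors quantified Cy3 fluorescence on each of 30 one-colour arrays with Agilent Feature Extraction and deposited the scanner files, whose intensity values are background-corrected processed signals, and for each age a table of signal divided by the 75th percentile. A table row carries a gene symbol or a probe name, and 98.7% to 98.8% of rows matched the scanner files within 0.002 on the log2 scale. The columns of the 21-week males carried animal numbers that do not run as the replicate numbers of the samples do. Values of 21-week males named by replicate therefore came from the scanner files. In the sex comparison the levels of these males are table values in column order, without replicate numbers. Table values and the common scale of the scanner files differ by about a constant and were not set side by side.

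Sex differences were tested at each age on log2 table values with limma 3.58.1 (R 4.3.3), by age over 23268, 23227 and 22458 names, and age differences and interactions on scanner values over 21242 names, with 6 group means and the slide as a random block (correlation 0.03). Benjamini-Hochberg adjustment ran over all names. Replicates were separate rats. On simulated data of 21242 names, 5 against 5 recovered 8% of log2 changes of 0.5 and 48% of changes of 1, and 10 against 10 recovered 50% and 76%. The changed names were drawn at random from all names, so these are not shares for the members.

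Named members were the 4 brightest and 4 dimmest of each subunit, the 5 with the smallest p in each sex comparison, the 6 largest called changes in each age comparison, the 3 with the smallest p in each interaction, the 4 with the highest and lowest correlations, members whose name and place differ, and at most 6 pathway genes by p. Mrpl1, Mrps15 in the sex comparison, Mrps2, Mrpl34, Mrpl48, Mrpl50, Mrps16 and further genes of other names were chosen after their values were seen. The members and the gene lists were chosen with earlier results of these data known. The number of arrays limits the precision.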

Additional observations from a re-analysis of the deposited data

Results flagged for a closer look

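The members named by rule and the mean of each subunit made 43 items, in 6 groups of 5 hearts, so 258 groups. A heart whose gap to its nearest neighbour was over 0.71 of the group's range occurred in 20, so 7.75% where chance gives about 5%. Of these, 7 were 78-week male replicate 4, 5 were 8-week male replicate 5 and 4 were 78-week female replicate 4. No cause was tested.

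The 78-week male replicate 4 was lowest of its group in Mrps15 (1.10, the next 2.88), Mrpl21 (-0.44, the next 0.59), Mrpl47 (1.00, the next 1.54) and Mrpl51 (0.55, the next 1.05). It was highest in Mrpl12 (6.31, the next 6.04), Mrpl53 (4.77, the next 4.32) and Mrps18a (3.50, the next 2.82). The mean over members in this heart (2.48) was the highest of the 78-week males.

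The 78-week female replicate 4 was highest of its group in Mrpl2 (-0.83), Mrps18b (0.23), Mrps27 (-1.18) and Mrps31 (3.96). The 8-week male replicate 5 was highest of its group in Mrpl12 (6.25), Mrpl16 (1.04), Mrpl30 (5.54), Mrps2 (2.32) and Mrps28 (5.13).

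Single hearts stood apart in 4 more cases. Mrps28 was lowest in 21-week female replicate 1 (5.10), Mrps15 in 8-week female replicate 2 (2.78), Mrps27 in 21-week male replicate 4 (-1.31) and Mrps14 in 78-week male replicate 5 (2.50).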

How the results depend on the processing

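No sex difference of a member passed the adjusted test at any age under any alternative but 1: a fit of all 30 arrays, chosen after seeing the data, passed 10 at 21 weeks (and 2334 of all names, against 17; over the other alternatives the counts over all names ran from 4 to 202). Without the 3 weakest arrays, also chosen after seeing the data, the 21-week median was -0.0404, and within 1 slide it was -0.63. Leaving out 1 heart gave medians of -0.02 to 0.01 at 8, -0.37 to -0.18 at 21 and 0.06 to 0.14 at 78 weeks, with 0 passing. Unadjusted, 10 members passed at 21 weeks in the main fit, where 16.8% of all names did. Leaving out 1 heart gave from 5 (without female replicate 1 or male replicate 2 or 5) to 31 (without male replicate 1). Normexp with quantile normalization gave 33. Shares of all names in those fits are not given here, so these counts do not set the members apart from all names. The 8-week difference of Mrpl46 turned from -0.09 to 0.00777 with the raw median signal.

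With the replicate number as a block the medians were 0.00, -0.27 and 0.10 with 0 passing, as in all interactions. Unadjusted, 0, 16 and 0 members passed, and the shares of all names in these fits are not given here. Pairing by number was not assumed, since not every pair correlated above 0.1 at any age: 1, 3 and 4 of 5 did, with a median same-number r of 0.04, 0.13 and 0.18 (other pairs -0.02, -0.05 and -0.02). At 78 weeks 8 of 10 hearts correlated best with their own number (3 and 6 at 8 and 21 weeks). Hearts of the same age and number also shared a slide, so pairing and slide cannot be told apart.

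The median rise from 8 to 21 weeks was 0.20 with quantile normalization, 0.16 with normexp and quantile normalization, 0.23 within females (9 rose) and 0.48 within males, and 0.30 to 0.40 leaving out 1 heart (55 to 61 rose, 0 fell). The raw median signal moved the median of all names from 0.08 to 0.21. For 78 against 21 weeks these medians were -0.31, -0.27, -0.25 (22 fell) and -0.63, and -0.48 to -0.40 leaving out 1 heart (64 to 66 fell, 0 rose). The 5 members that fell from 8 to 78 weeks (8.32% of all names did) became 8 with no slide block, with normexp or with a background filter. The count was 11 with quantile normalization or the raw signal, 13 without the weakest arrays, 1 without the shared slide and 0 within females. With the slide as a fixed block, which rests on the 1 slide that held both ages, it was 0. Shares of all names in these alternative fits are not given here. Leaving out 1 heart gave 3 to 11 (medians -0.09 to -0.06): 3 without 8-week female or male replicate 5 or 78-week female replicate 2 or 5, 8 and 9 without 21-week male replicate 1 or 5, and 11 without 78-week female replicate 4. Interactions gave 0 to 2, 0 and 0 to 17.

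The median level over members was 2.74 with quantile normalization, 2.41 with normexp, 2.92 with the raw signal and 1.47 with the mean of all probes, and large minus small was -0.25 with normexp, -0.23 with the raw signal and 0.49 with the mean of all probes. Correlations with quantile normalization stand beside their main values (0.31, 0.79 and 0.36), without 21-week male replicate 2 the median was 0.94, and without the 3 weakest arrays 0.79. Of 900 values, 768 kept their direction and side of the threshold or their size. The cause of the changes was not tested.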
